A study of Mus musculus with 28 samples.

Results

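The genes described here encode the proteins of the contractile apparatus: the myosin heavy and light chains, actins, troponins, tropomyosins, alpha-actinins, myosin-binding proteins, tropomodulins and leiomodins, and the Z-disc and M-band proteins titin, nebulin, telethonin and Ldb3, with muscle creatine kinase (Ckm). Members were taken by a rule on gene symbols that uses no measured value, though it was chosen with earlier results of these data known. They numbered 65 genes of 28482 gene or transcript names on the array, or 120 of 41174 probes. Of these, 115 probes passed the filter on dim spots, which asked for a Cy3 signal well above background on at least 2 arrays, and 31064 probes passed in all. By role the probes comprised 20 of fast skeletal fibres (11 genes), 23 of slow skeletal and cardiac muscle (15 genes), 4 of developmental myosins (2 genes), 34 of shared striated thin filament, Z-disc and M-band proteins (15 genes), 9 of tropomyosins (4 genes), 6 of smooth muscle (4 genes) and 20 of non-muscle myosin, actinin and tropomodulin (10 genes). The other 4 probes had no role list: Myh13, Myl10, Mylk4 and Tnni3k, a kinase that the symbol rule takes in. The first 4 roles are called striated below (81 probes, 80 of them tested).

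The study set adult Lgr5 liver cells and the organoids grown from them against liver and unrelated tissues on 28 two-colour arrays, all from C57BL/6 mice. Sample RNA was labelled with Cy3 and a commercial mouse reference RNA with Cy5 on every array, so each value is a log2 ratio of sample to reference. Wild-type tissue gave muscle, white adipose tissue and brown adipose tissue (3 arrays each) and adult liver and pancreas (2 each). Liver material gave whole liver, hepatocytes, duct cells sorted for the surface antigen Mic1-1c3, Lgr5-sorted cells taken 6 days after the hepatotoxin carbon tetrachloride (CCl4), and liver 3 and 13 days after CCl4, with 2 arrays each. Organoids grown from single Lgr5 cells gave 2 arrays in expansion medium (EM) and 1 in differentiation medium (DM). The labels call the arrays biological replicates without saying which animals they came from, name no age and do not say which muscle was taken, and p-values then measure only the spread between these samples.

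In striated muscle, thick filaments of myosin slide along thin filaments of actin, and calcium bound by troponin moves tropomyosin off the actin so that myosin can bind. Fast, slow and cardiac fibres use different genes for the same part of this machine, and embryonic and perinatal myosin heavy chains precede the adult ones. Smooth muscle and non-muscle cells lack troponin and switch myosin on through phosphorylation of its regulatory light chain by myosin light chain kinase (Mylk). In liver these smooth and non-muscle forms belong to vessel walls, activated stellate cells and the cortex of epithelial cells.

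Several facts of the arrays touch what follows. No member spot was saturated in Cy3, and between 17.7% and 69.1% of probes were well above background, lowest in pancreas replicate 1 (17.7%) and in the Lgr5-sorted cells (18.5% and 21%). The muscle arrays also carried adipocyte markers, with a median log2 ratio over 10 genes of 6, 5.16 and 5.51 against 4.73 to 5.87 in white adipose tissue, and 9 of the 10 were detected on each muscle array. Brown adipose replicate 1 alone among the adipose arrays carried pancreatic acinar markers, with all 10 detected and a summed Cy3 signal of 50900 against 1300 and 1470 in replicates 2 and 3. The part of these cells in the values below was not tested, and in bulk tissue fewer cells of a type and less RNA per cell cannot be told apart.

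The reference channel moved with the members. Although every array holds the same reference RNA in Cy5, the Cy5 level, set against each array's 75th percentile, was at least 1 log2 unit higher in muscle than in adult liver at 54 of the 80 tested striated probes, against 1.93% of all tested probes. At Ckm, the creatine kinase of muscle, the Cy5 level was 1.28, 0.43 and 1.77 on the muscle arrays and -2.97 and -3.5 on the adult liver arrays. The ratio was therefore a smaller number than the change in Cy3: the median striated difference between muscle and adult liver was 5.16 as a log2 ratio and 6.11 in Cy3 alone. Between muscle and brown adipose tissue the same medians were 1.95 and 3.48, and the source of the Cy5 shift was not tested.

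**Figure D1:**
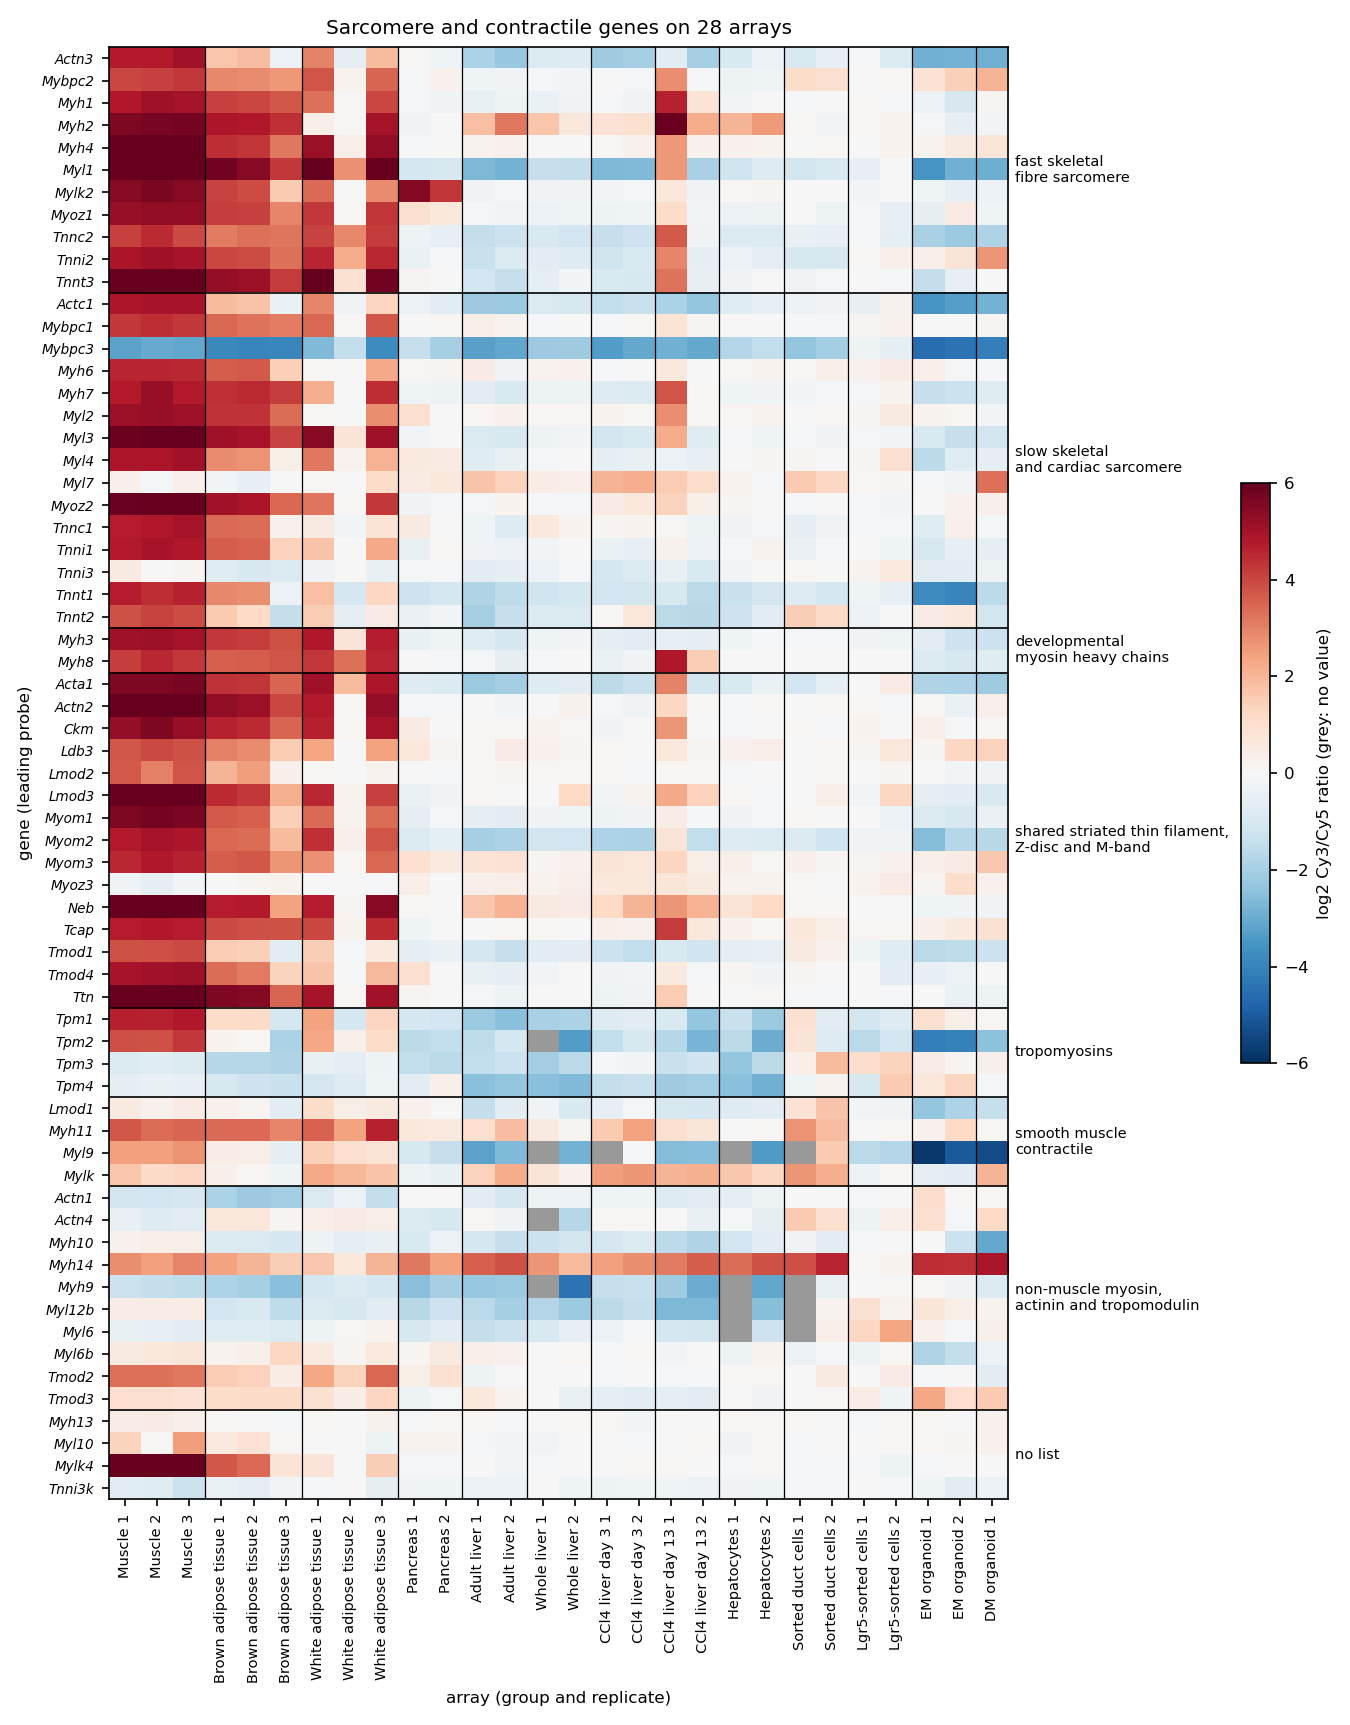
Log2 ratio of sample (Cy3) to reference (Cy5) for the leading probe of each of the 65 genes (rows, grouped by role) on the 28 arrays (columns, grouped by sample), with grey for spots left out and the colour scale ending at -6 and 6. Most striated rows are high on all 3 muscle arrays. Many are high on the brown adipose arrays, fewer of them on replicate 3, and on white adipose replicates 1 and 3. Part of the rows are high on replicate 1 of liver 13 days after CCl4.

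Muscle was the group with the highest mean for 88 of the 115 tested probes (76.5%), against 13.1% of all tested probes. Set against adult liver, 92 probes of 51 genes were called higher in muscle and 1 was called lower, where 17.5% of all tested probes were called higher and 15.1% lower (limma, Benjamini-Hochberg adjusted p under 0.05 and a log2 difference of at least 1, two-sided). The median log2 difference of the 115 probes was 4.65, beside -0.02 for all tested probes. Muscle and adult liver shared no slide or scan day, so batch and tissue cannot be told apart in this comparison.

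Among fast-fibre genes 19 of 20 probes were called higher, with a median log2 difference of 5.6. Myl1, the essential light chain of fast myosin, had log2 ratios of 7.37, 7.69 and 7.45 in muscle and -2.69 and -2.84 in adult liver. It was the member with the largest difference, 10.27 ± 0.96 (SE, adjusted p = 1.69e-08), and since it was not well above background in liver its Cy3 signal gives a bound of at least 1270-fold. Tnnt3, the fast troponin T that anchors troponin to tropomyosin, stood at 6.44, 6.55 and 6.62 in muscle against -1.15 and -1.37, a bound of at least 1690-fold. Such bounds set the mean Cy3 signal of the bright group against the dimmest signal called well above background on the other arrays, and without dye swaps they are open to dye bias. Myh4, the heavy chain of the fastest fibres, stood at 5.99, 6.15 and 6.01 in muscle against 0.21 and 0.26. Actn3, the Z-disc actinin of fast fibres, was 4.78, 4.75 and 5.04 against -1.9 and -2.26.

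The slow and cardiac genes gave 18 of 22 probes higher and 1 lower. Myh7, the slow-fibre heavy chain, had log2 ratios of 4.78, 5.23 and 4.75 in muscle and -0.62 and -0.92 in liver, and Tnnc1, the calcium-binding troponin of slow and cardiac muscle, had 4.73, 4.81 and 4.98 against -0.27 and -0.77. Genes of fast and of slow fibres were thus high on every muscle array. Genes that in adult mice are tied to the heart divided: Myh6 and Actc1, the alpha heavy chain and the cardiac actin, were high in muscle (4.5 to 4.58 and 4.83 to 4.96), whereas Tnni3 and Mybpc3, the cardiac troponin I and myosin-binding protein C, were not. Tnni3 stood at 0.52, 0.02 and 0.16 in muscle against -0.64 and -0.55 in adult liver, a difference of 0.83 ± 0.18 (adjusted p = 0.000615) that is under the fold minimum. Mybpc3 stood at -3.19, -3.02 and -3.1 against -3.24 and -3.11, a log2 difference of 0.07 ± 0.38 (adjusted p = 0.888). Myl7, the atrial regulatory light chain, was the member called lower, at 0.3, -0.12 and 0.31 in muscle against 1.73 and 1.37 in adult liver (-1.39 ± 0.26, adjusted p = 0.000126). In whole liver Myl7 stood at 0.43 and 0.38, and against whole liver Myl7 was not called in muscle (-0.24, adjusted p = 0.466).

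All 4 developmental myosin probes were higher in muscle. Myh3 (embryonic) had log2 ratios of 5.07, 5.15 and 4.98 against -0.74 and -1, and Myh8 (perinatal) 4.14, 4.54 and 4.26 against -0.11 and -0.55. Heavy-chain genes are close copies of each other, so the array's own sequences were compared. Each member probe, 60 bases long, was set against the probes of the other member genes: the nearest pair shared 40 of 60 aligned bases, and the median probe shared 27 with its nearest match. That nearest pair was the probe of Myh4 and the probe of Myh3, shown over their most alike 30 bases with the differing bases in capitals.
Myh4: gaaCgtgCtgagGCtgcaggaCTtggtgga
Myh3: gaaTgtgTtgagATtgcaggaTCtggtgga
In this stretch 24 of 30 bases were identical. The Myh3 and Myh4 probes ran high on the same tissue arrays but not on liver 13 days after CCl4 replicate 1, where Myh4 was 2.59 and Myh3 was -0.5. Probes were compared with probes and not with the transcripts of the other genes. The counts of identical bases therefore cannot show how well a probe matches a paralogue. Cross-hybridisation between paralogues was not tested.

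Of the shared striated proteins 33 of 34 probes were higher. Acta1, the actin of the skeletal thin filament, had log2 ratios of 5.58, 5.61 and 5.69 in muscle and -2.25 and -2.04 in adult liver. Ttn, the giant elastic protein titin, stood at 7.13, 7.27 and 7.09 against -0.11 and -0.31, and Neb, the thin-filament ruler nebulin, at 6.92, 7.09 and 7.11 against 1.61 and 2.09. Neb was the striated member of this role with the highest ratio in liver, and its 6 probes disagreed there: the second probe read 0.74 and 0.89 in adult liver and the other 4 between -0.13 and 0.54. Myoz3, the Z-disc protein calsarcin-3, was the member of this role not called, at -0.21, -0.53 and -0.17 in muscle, where it was not well above background.

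Genes outside the family that belong to the same tissue showed the same order. All 16 tested genes of calcium handling (17 on the array), led by the calcium channel subunit Cacna1s and the calcium-release channel Ryr1, were called higher in muscle than in adult liver, as were 6 of 9 tested myogenic transcription factors, led by Myf6 and Myog. Of the smooth muscle and mesenchymal markers 9 of 10 were also higher in muscle, and of the hepatocyte markers 11 of 12 were lower.

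Promoter sequence was read for members that moved together, because the serum response factor binds the CArG box in muscle actin genes. RefSeq promoters (assembly GRCm38.p6) matched 53 of the 65 member genes. Motifs on either strand were sought in the 250 bases upstream of the start. A CArG box lay in 8 of 38 striated promoters (21.1%), in 2 of 14 smooth and non-muscle promoters (14.3%) and in 1.47% of all 32851 promoters. A MEF2 site was in 7 of the 38 (18.4%), in 0 of the 14 and in 2.92% of all, and the loose E-box CANNTG in 81.6%, 71.4% and 66.2%. The 250 bases before the start are shown for the 2 striated actins and for Myl9, the smooth muscle regulatory light chain that changed most in the liver samples, with the CArG box in capitals, 73, 47 and 161 bases before the start.
Acta1 (chr8:123894776-123895025, minus strand): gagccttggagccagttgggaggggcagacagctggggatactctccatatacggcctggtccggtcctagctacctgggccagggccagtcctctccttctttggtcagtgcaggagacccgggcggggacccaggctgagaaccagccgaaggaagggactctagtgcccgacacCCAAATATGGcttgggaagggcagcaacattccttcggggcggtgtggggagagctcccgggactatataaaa
Actc1 (chr2:114052876-114053125, minus strand): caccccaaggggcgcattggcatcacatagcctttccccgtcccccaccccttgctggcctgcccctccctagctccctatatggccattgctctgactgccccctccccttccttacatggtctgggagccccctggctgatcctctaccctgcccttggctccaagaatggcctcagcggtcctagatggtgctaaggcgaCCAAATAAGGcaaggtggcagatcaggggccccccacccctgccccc
Myl9 (chr2:156775214-156775463, plus strand): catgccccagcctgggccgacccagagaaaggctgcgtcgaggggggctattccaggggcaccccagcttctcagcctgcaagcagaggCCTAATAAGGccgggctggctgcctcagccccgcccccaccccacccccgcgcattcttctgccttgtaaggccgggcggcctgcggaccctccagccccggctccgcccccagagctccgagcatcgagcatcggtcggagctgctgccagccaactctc
A match describes the letters in this window and is no evidence of binding. Although Acta1 and Myl9 both hold the box, Acta1 had its highest ratios in muscle and in adipose arrays and stayed below 0 in duct cells, where Myl9 was at 1.57, and Myl9 too was highest in muscle (2.47, 2.48 and 2.7).

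The adipose tissues carried the striated genes too, unevenly between replicates. The number of striated probes with a log2 ratio of at least 2 was 72, 72 and 73 of 81 in muscle. It was 59, 59 and 31 in brown adipose replicates 1 to 3, and 42, 4 and 51 in white adipose replicates 1 to 3. Of all tested probes, 5.6%, 5.33% and 5.76% reached this ratio in muscle. In brown adipose tissue 6.78%, 6.7% and 6.2% did, and in white 2.6%, 1.28% and 4.87%. Ckm stood at 5.26, 5.58 and 5.22 in muscle, 4.64, 4.48 and 3.48 in brown adipose tissue and 4.67, 0.1 and 5.01 in white adipose tissue. White adipose replicate 2 was thus below every other adipose and muscle array for Ckm. Its adipocyte markers were also the lowest of the white arrays, by less than Ckm, with a median log2 ratio of 4.73 against 5.28 and 5.87. The calcium-handling genes followed the members (2.35, 0.03 and 1.82 in white, 2.57, 2.48 and 0.95 in brown, 4.52 to 4.69 in muscle). The summed Cy3 signal of the 43 striated genes was 1160000, 35300 and 502000 in white adipose replicates 1 to 3, 516000, 505000 and 94300 in brown, and 2510000 to 3020000 in muscle.

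Single members differed between white adipose replicates 1 and 3. Myh4 stood at 5.18 in replicate 1 and 5.31 in replicate 3, and Acta1 at 5.08 and 4.87. Myh2, the heavy chain of intermediate fast fibres, stood at 0.37 and 4.98, and Myl2, the slow and ventricular regulatory light chain, at 0.06 and 2.79. Myh6 stood at 0.05 and 2.26, and Myh7 at 2.17 and 4.45. These 4 genes were higher in replicate 3. Actc1 and Actn3 went the other way, at 2.92 and 2.97 in replicate 1 against 1.27 and 1.91 in replicate 3. Over whole roles the medians lay closer: that of the 11 fast-fibre genes differed from the muscle mean by -0.87 and -0.74 log2 units, and that of the 15 slow and cardiac genes by -2.43 and -2.29. Each is the value of 1 array, with no test between replicates.

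**Figure D2:**
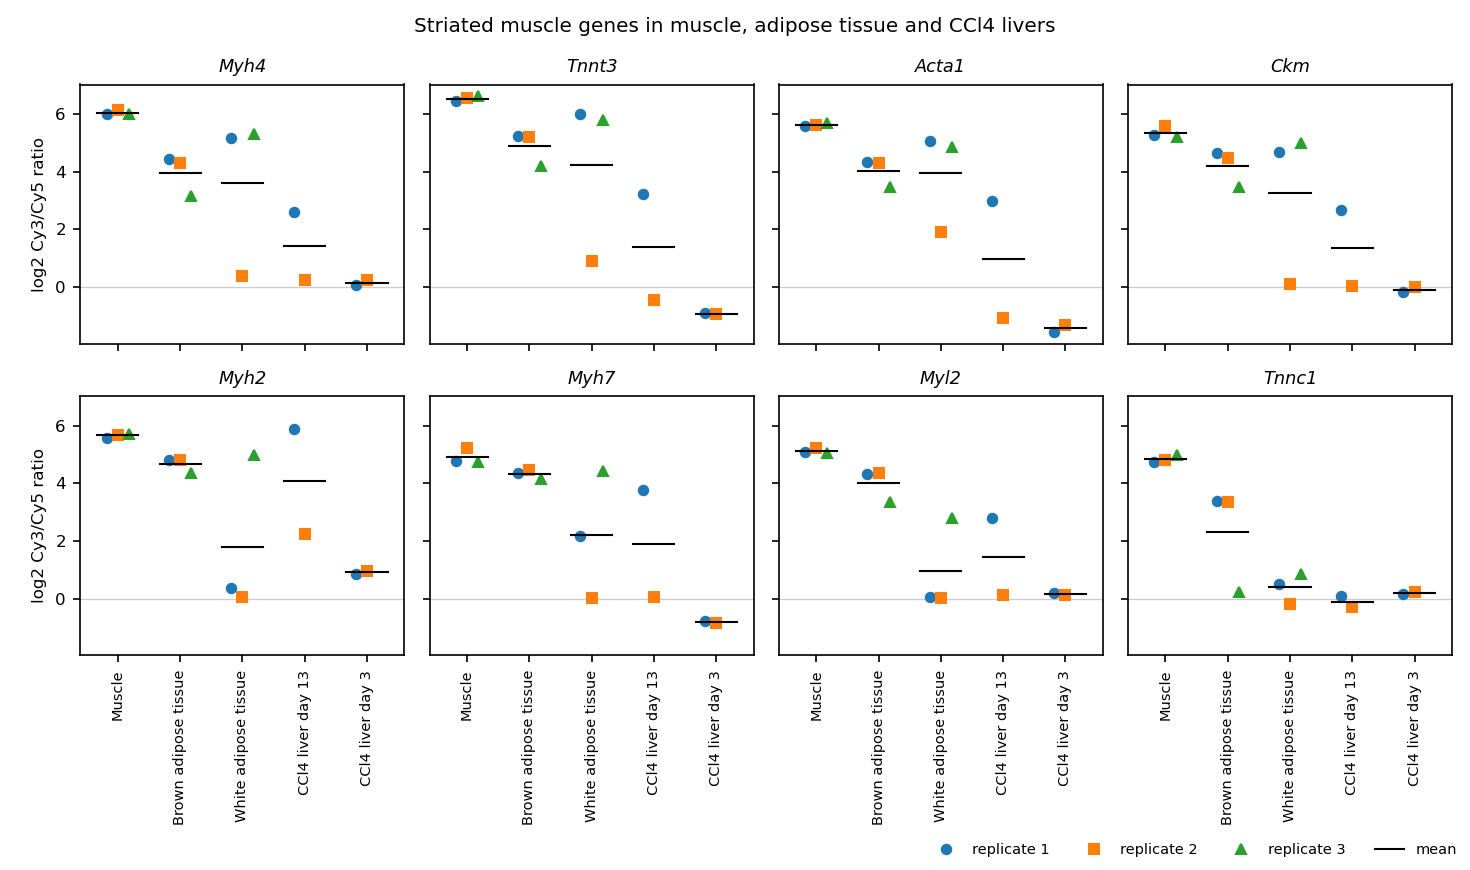
Log2 ratio to reference of 8 striated genes on each array (points, marked by replicate) of muscle, brown and white adipose tissue and liver 13 and 3 days after CCl4, with a line at the group mean. The muscle points lie close together, white adipose replicate 2 lies far below replicates 1 and 3 for Myh4, Tnnt3, Acta1 and Ckm, and day 13 replicate 1 lies above replicate 2 for each gene, least so for Tnnc1 (0.09 and -0.29).

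Compared with white adipose tissue, 76 probes were higher in muscle and 1 was lower, beside 7.40% and 4.04% of all tested probes. Of striated probes 65 of 80 were higher, with a median log2 difference of 3.14. Mylk4, a myosin light chain kinase family member, had the largest difference, at 6.65, 6.88 and 6.58 in muscle against 0.78, 0.02 and 1.46 (5.95 ± 0.47, adjusted p = 1.25e-08). A Ttn probe followed, at 5.99, 6.12 and 6.25 against 2.28, 0.03 and 2.18 (4.63 ± 0.54, adjusted p = 1.91e-06), and Tnnc1 stood at 4.73 to 4.98 against 0.52, -0.17 and 0.84 (4.44 ± 0.53, adjusted p = 2.91e-06). Several of the brightest fast and shared members did not pass on the ratio, among them Acta1 (1.68, adjusted p = 0.099), Tnnt3 (2.29, adjusted p = 0.0738) and Ckm (2.09, adjusted p = 0.0666). In Cy3 alone, under the same limma fit, these differed by 2.95 (adjusted p = 0.0326), 4.13 (0.00582) and 4.09 (0.00114). The second Tnnt3 probe passed (2.5, adjusted p = 0.0325). For Tnnc2 and the leading Myh8 probe neither scale passed: their log2 ratios differed by 0.47 and 0.28, and their Cy3 levels by 2.07 (adjusted p = 0.0943) and 2.22 (adjusted p = 0.0827). The second Myh8 probe was called higher, at 4.92, 5.07 and 4.93 in muscle against 2.56, 0.02 and 1.79 (3.52 ± 0.46, adjusted p = 8.03e-06). Actn4, a non-muscle actinin, was the member called lower, at -0.46, -0.76 and -0.63 against 0.41, 0.5 and 0.4. All 6 arrays were scanned on 1 day, and on the slide that held 1 array of each tissue all 77 called probes kept their sign. These arrays also made the calls, so this is no independent check of batch. Without white adipose replicate 2, 60 probes were higher, and in a fit of muscle and white adipose arrays alone 50 were. In Cy3 alone, where the median of all probes fell by 0.56, the split was 76 higher and 8 lower. With the deposited log ratio 36 were higher and 2 lower.

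Compared with brown adipose tissue, 67 probes were higher and 1 was lower, beside 12.2% and 10.3% of all tested probes. Striated probes gave 53 of 80 higher on the ratio, with a median of 1.95. The calls were fewer among fast-fibre genes (8 of 20) than among shared proteins (29 of 34), and the difference between roles was not tested. The Cy5 level was at least 1 log2 unit higher in muscle at 54 of the 80 striated probes. In Cy3 alone 65 of 80 were called higher and 0 lower, with a median of 3.48. Counts by role in Cy3 alone are not given here, so the role counts hold for the ratio only. The 2 largest differences were in tropomyosins, the coiled coils along the thin filament, and Tpm2, the beta chain, had 3.88, 3.84 and 4.26 in muscle against 0.23, 0.1 and -1.89 (4.51 ± 0.55, adjusted p = 1.71e-06). Myh2 (4.83, 4.8 and 4.37 in brown adipose tissue, 5.59 to 5.73 in muscle) and Myh7 (4.37, 4.47 and 4.16 against 4.75 to 5.23) did not pass on the ratio, with log2 differences of 1.01 (adjusted p = 0.384) and 0.59 (adjusted p = 0.557). Their Cy3 differences are not given here, and because of the Cy5 shift their like ratios are not read as like amounts. Actn4 was again the member called lower (-1.11 ± 0.25, adjusted p = 0.00121). With the deposited log ratio, where the median of all probes fell by 0.26, 32 were higher and 3 lower. Stellate and matrix markers moved with the members, with 9 of 10 higher in muscle and summed Cy3 of 410000 to 558000 against 72000 to 109000, and their part was not tested. No slide or scan day held both tissues, and both comparisons share the muscle arrays.

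Between the adipose tissues 19 probes were higher in brown and 11 lower, beside 9.61% and 8.37% of all tested probes. In most of these calls the arrays overlapped, with 12 of 30 called probes and 3 of the 18 called striated probes free of overlap. Myl2 was such a member, at 4.32, 4.35 and 3.37 in brown against 0.06, 0.01 and 2.79 in white (3.06 ± 0.59, adjusted p = 0.000344). The share of calls free of overlap over all tested probes is not given here, so the overlap is not read as a trait of the members. The striated side of this comparison depended on the scale and on single arrays. Without white adipose replicate 2, 7 members were higher, without replicate 3, 35 were higher, and without brown adipose replicate 3, 36 were higher. Without brown replicate 1 or replicate 2, 9 were higher. With the deposited log ratio 8 were higher. In a fit of the adipose arrays alone 1 was higher and 7 lower, and in Cy3 alone, where the median of all probes fell by 0.8, 7 were higher and 32 lower, so no direction is given here for the striated members as a group.

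Of the smooth and non-muscle members 6 of 24 probes were called lower in brown fat and 0 higher, with 18 not called, beside 8.37% and 9.61% of all tested probes. Mylk, the kinase that activates smooth muscle myosin, had log2 ratios of 0.31, 0.1 and -0.24 in brown against 2.28, 1.98 and 1.73 in white (-1.94 ± 0.23, adjusted p = 1.82e-06). Myl9 stood at 0.43, 0.37 and -0.57 against 1.41, 1.02 and 0.83, and Myh9, the main non-muscle heavy chain, at -1.85, -1.98 and -2.51 against -1.07, -0.84 and -1. The tissues did not overlap on these 3 probes, and the second Myh9 probe differed by -0.97 (adjusted p = 0.00208), under the fold minimum. Stellate and matrix markers moved with them, with 8 of 10 lower in brown fat and summed Cy3 signals of 72000 to 109000 against 503000 to 633000, and so did 6 of 8 macrophage and blood markers (summed Cy3 of 217000 to 249000 against 383000 to 493000) and 3 of 10 smooth muscle and mesenchymal markers (Acta2, Tagln and Cnn1). Of the brown fat markers 11 of 13 were higher. Their part in the result was not tested, and slide and scan day cannot be told apart from tissue.

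Liver 13 days after CCl4 gave a striated signal on replicate 1. The number of striated probes with a log2 ratio of at least 2 was 22 on replicate 1 and 3 on replicate 2. It was 1 and 2 at day 3, 0 and 2 in adult liver, and 0 on both whole liver arrays. Of all tested probes, 6.73% and 6.97% reached this ratio at day 13 and 5.73% and 5.81% at day 3. In adult liver 6.92% and 7.56% did, and in whole liver 4.7% and 4.8%. Myh2 read 5.91 and 2.24 on its leading probe and 5.98 and 2.43 on the next, with ratios on replicate 1 as high as on the muscle arrays. Because the Cy5 level at striated probes was higher in muscle than in adult liver, like ratios are not read here as like amounts. The other Myh2 probes differed: 1 read 2.75 and 0.27, and 1 read -0.03 and 0.27 and was also low in muscle (0.03, -0.36 and 0.88). Myh8 stood at 4.82 and 1.49, Myh1 (a fast heavy chain) at 4.63 and 0.82, Tcap (the titin cap telethonin) at 4.19 and 0.62, and Myh7 at 3.77 and 0.06. Replicate 2 was thus above the day 3 arrays for Myh2 (0.22 and 0.22 on the second probe) and Myh8 (-0.41 and -0.22), while for Myh7 it stood at 0.06 against -0.77 and -0.84. The values of Myh1 are those of its leading probe. Its other probes had means of 1.42 and 1.2 in muscle and of at most 0.32 and 0.41 in any other group. Other members that are high in muscle stayed low on replicate 1: Actn3 at -0.66, Actc1 at -1.9, Tnnt1 (slow troponin T) at -0.95, Myl4 (the embryonic and atrial light chain) at -0.37 and Myh3 at -0.5. The summed Cy3 signal of the 43 striated genes was 63700 on replicate 1 and 8780 on replicate 2, against 7930 and 8810 at day 3 and at least 2510000 in muscle.

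Against day 3, 3 members were called higher at day 13 and 6 lower, beside 1.90% and 2.99% of all tested probes. The 3 were Myh2 on its second probe (3.98 ± 1.07, adjusted p = 0.0247), Myh8 (3.47 ± 0.59, adjusted p = 0.000629) and Tnnc2, fast troponin C, at 3.69 and -0.22 against -1.39 and -1.22 (3.04 ± 0.69, adjusted p = 0.00739). The second Myh8 probe, which was high in muscle, read -0.03 and -0.09 at day 13 and -0.06 and -0.06 at day 3, so the Myh8 call rests on 1 of its probes. Without day 13 replicate 1 only Myh8 kept a call, at 1.81 (adjusted p = 0.00322), while Myh2 was at 2.21 (adjusted p = 0.487) and Tnnc2 at 1.09 (adjusted p = 0.136). Without day 13 replicate 2, 14 members were higher and 2 lower. Without day 3 replicate 1 or replicate 2, 1 was higher, and with the deposited log ratio 9 were. Calcium-handling genes followed replicate 1, with 15 of 17 detected and a median of 0.66 against 7 of 17 and -0.14 on replicate 2, and adipocyte markers did so too (1.64 against 0.41). The 4 day 13 and day 3 arrays lay on a single slide scanned on a single day. What gave replicate 1 its striated signal was not tested.

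Myh2 also read above 0 in undamaged liver on its leading probe, at 1.8 and 3.17 in adult liver, 1.66 and 0.7 in whole liver and 2.06 and 2.57 in hepatocytes, against 0.09 and -0.17 in duct cells. Its second probe read 0.27 and 0.01 in adult liver and 0.04 and 0.32 in hepatocytes, and was not well above background in adult liver. The leading probe alone therefore carries any statement on Myh2 in liver cells, including its lower call in EM organoids against adult liver (-2.81 ± 1.11, adjusted p = 0.0457, second probe -0.18).

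Tropomyosins are made in muscle and non-muscle forms from the same genes by alternative promoters and exons. The probes of Tpm1 and Tpm3 did not follow each other across the groups. Their positions on mm9, from the array files, and their first 30 bases are shown because the tissues differ by probe, not by gene.
Tpm1 probe 1 (chr9:66880625-66881695): gaagtatgaagaggtggcccgtaagctggt
Tpm1 probe 2 (chr9:66875959-66877514): atcagcgaggagctggaccacgctctcaac
Tpm1 probe 3 (chr9:66870869-66870928): cttcatagagtttaggcatgcagtttgctt
Tpm3 probe 1 (chr3:89893733-89893942): agacaagtatgaagaagaaataaagattct
Tpm3 probe 2 (chr3:89904346-89904405): aaaggaaaattatgtttgtgccactgattt
Tpm1 lies on the minus strand, and its probes 1 and 2 span 1071 and 1556 bases of genome for 60 bases of probe, so each is split over the genome. Which exon or untranslated region each probe lies in was not resolved here.

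Tpm1 probes 1 and 2 were high in muscle, at 4.67, 4.6 and 4.81 and at 5.33, 5.4 and 5.51, while probe 3 read -0.92, -0.9 and -0.86. In EM organoids probes 1 and 3 read 0.98 and 0.35 and 0.45 and 0.12, while probe 2 read -2.32 and -2.03. In adult liver these 3 were low, at -2.24 and -2.5, at -3.15 and -3.13, and at -2.56 and -2.74. Probe 2 was thus high in muscle without being high in organoids, probe 3 was higher in organoids than in muscle, and probe 1 was above liver in both. A further Tpm1 probe, not shown, lay between -0.88 and 0.61 on all 28 arrays, with -0.58, -0.88 and 0.1 in muscle. Against adult liver, EM organoids differed by 3.03 ± 0.8 on probe 1 (adjusted p = 0.00404) and 2.94 ± 0.24 on probe 3 (adjusted p = 3.88e-09), and muscle by 7.06 ± 0.73 on probe 1 (adjusted p = 7.77e-08) and 8.55 ± 0.95 on probe 2 (adjusted p = 2.03e-07).

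Tpm3 probe 1 read 2.98, 2.54 and 3.4 in muscle and 2.22, 2.1 and 0.19 in brown fat against -0.33, -0.07 and 0.08 in white fat. Probe 2 had the opposite order, at -1.71, -1.73 and -1.82 in brown fat against -0.43, -0.54 and -0.29 in white. Brown against white fat was therefore called higher on probe 1 (1.61 ± 0.38, adjusted p = 0.0023) and lower on probe 2 (-1.34 ± 0.26, adjusted p = 0.000349). Probe 2 was highest in sorted cells, at 0.42 and 1.89 in duct cells and 1.06 and 1.38 in Lgr5-sorted cells, against -2.34 and -1.56 in hepatocytes. Tpm4, a tropomyosin of non-muscle filaments, stood at 0.66 and 1.29 in EM organoids against -2.53 and -2.32 in adult liver, and at -0.54, -0.46 and -0.51 in muscle.

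**Figure D3:**
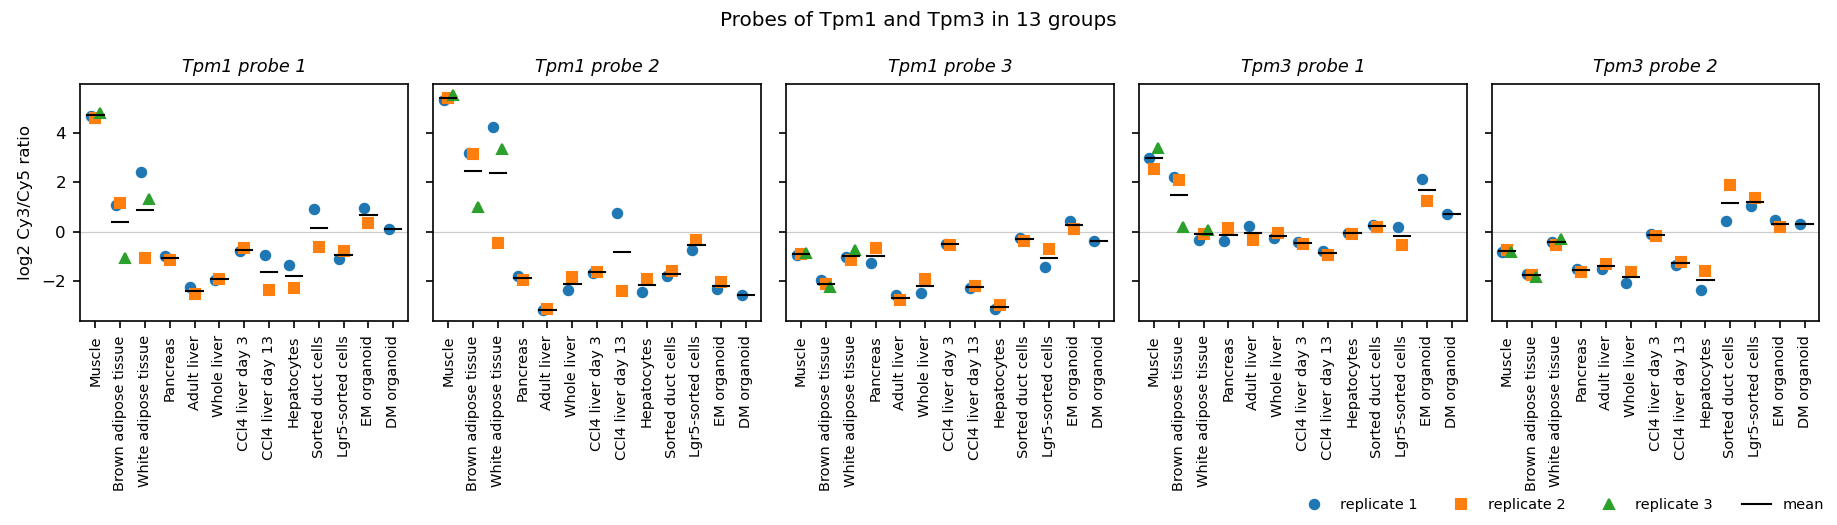
Log2 ratio to reference of 3 Tpm1 probes and 2 Tpm3 probes on each array (points) of the 13 groups, with a line at the group mean. Tpm1 probe 2 peaks in muscle (5.33 to 5.51) and is low in organoids, Tpm1 probe 3 peaks in EM organoids (0.12 and 0.45), and Tpm3 probes 1 and 2 run in opposite order in brown and white fat.

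In liver 3 days after CCl4, 7 members were called higher than in undamaged liver, taken as the mean of the adult liver and whole liver groups, and 0 were called lower, beside 4.18% and 1.86% of all tested probes. At an unadjusted p under 0.05 in the limma fit 14 members were higher and 2 lower. Of the 7, 3 were smooth muscle probes, 2 tropomyosin probes, 1 a non-muscle probe and 1 Myl7. Across all 115 the median log2 difference was -0.01, beside 0 for all tested probes. The undamaged and day 3 arrays shared no slide or scan day, so batch and damage cannot be told apart here. In a fit of these groups alone 11 were higher.

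Myl9 had a log2 ratio of -0.12 at day 3 on the 1 array that the fit used, against -3.2 and -2.65 in adult liver and -2.82 on the 1 whole liver array used. The other day 3 and whole liver spots were not uniform and were left out, and would have read -0.46 and -2.12. It had the largest difference, 2.75 ± 0.38 (adjusted p = 0.000139). Mylk stood at 2.49 and 2.65 against 1.36 and 2.24 in adult liver and 0.79 and 0.24 in whole liver (1.41 ± 0.24, adjusted p = 0.000486). A second Mylk probe was also called (1.42), and its remaining probe, between -0.19 and 0.32 on all arrays, was not called in any comparison. The leading probes of the kinase and of the light chain it phosphorylates were thus above every undamaged array.

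Tpm1 probe 3 read -0.49 and -0.52 at day 3 against -2.56 and -2.74 in adult liver and -2.46 and -1.91 in whole liver (1.91 ± 0.21, adjusted p = 2.65e-06). Tpm3 probe 2 read -0.09 and -0.15 against -2.07 to -1.28 (1.49 ± 0.27, adjusted p = 0.000829). Myh9 read -1.38 and -1.32 against -2.27 and -2.21 in adult liver and -4.42 on the 1 whole liver array used (1.98 ± 0.24, adjusted p = 2.44e-05). The Myh9 spot of the other whole liver array, left out as not uniform, would have read -2.28. With outlier spots kept Myh9 differed by 1.44 (limma, adjusted p = 0.0421). None of these groups overlapped, but the second Myh9 probe differed by 0.47 (adjusted p = 0.242). Against adult liver alone Myh9 differed by 0.89 (adjusted p = 0.0276, under the fold minimum), Mylk by 0.77 (adjusted p = 0.0772) and Myl7 by 0.54 (adjusted p = 0.242), so these 3 calls rest on the whole liver arrays. Myh11, the smooth muscle heavy chain, stood at 1.57 and 2.41 against 1.01 and 1.87 in adult liver and did not pass (1.1, adjusted p = 0.0909).

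Markers of smooth muscle and stellate cells moved with them. Of the smooth muscle and mesenchymal markers outside the family 4 of 10 were higher at day 3, led by Tagln and Pdgfrb, and of the stellate and matrix markers 6 of 10, led by Col1a1 and Col3a1. The summed Cy3 signal of the stellate and matrix list was 75800 and 85000 at day 3 against 15400 to 28500 in undamaged liver. The part of these cells in the result was not tested. The striated members did not follow, with 1 of 80 called (Myl7, at 2.03 and 2.16 against 0.38 to 1.73). In Cy3 alone Myl7 differed by 0.15 (limma, adjusted p = 0.74). It also lost the call with the deposited ratio (1.04, adjusted p = 0.496) and with offset 0 (1.23, adjusted p = 0.0818).

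Of the 7 probes called higher at day 3, 4 were called lower at day 13 than at day 3, while both Mylk probes and Myl7 were not (leading Mylk probe -0.48, adjusted p = 0.465, and Myl7 -0.79, adjusted p = 0.107). The 6 called lower against day 3 were Myl9, Tpm1 probe 3, Tpm3 probe 2, Myh9, Myl12b and the second probe of Myh10, a non-muscle heavy chain. Myl9 stood at -2.59 and -2.54 against -0.12 (-2.44 ± 0.4, adjusted p = 0.000882, 1 day 3 array used), and Tpm1 probe 3 at -2.26 and -2.17 against -0.49 and -0.52 (-1.71 ± 0.24, adjusted p = 8.03e-05). Myl12b, a non-muscle regulatory light chain, stood at -2.68 and -2.69 against -1.64 and -1.39 (-1.17 ± 0.25, adjusted p = 0.00569). Day 13 and day 3 arrays did not overlap for these 3 genes. Myl12b and Myh10 had not been called at day 3 against undamaged liver. The second probes of Myh9 (-0.25, adjusted p = 0.893) and Myl12b (-0.9, adjusted p = 0.0152, under the fold minimum) and the leading probe of Myh10 (-0.78, adjusted p = 0.133) were not called. With outlier spots kept the leading Myh9 probe lost its call (-1.21, limma adjusted p = 0.236). Without day 3 replicate 2, 1 member was lower, and without day 13 replicate 2, 2 were. In Cy3 alone, where the median of all probes rose by 0.22, 3 were lower. Of the stellate and matrix list 4 of 10 were lower at day 13, with summed Cy3 of 41100 and 35100. This comparison and the one above share the day 3 arrays.

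**Figure D4:**
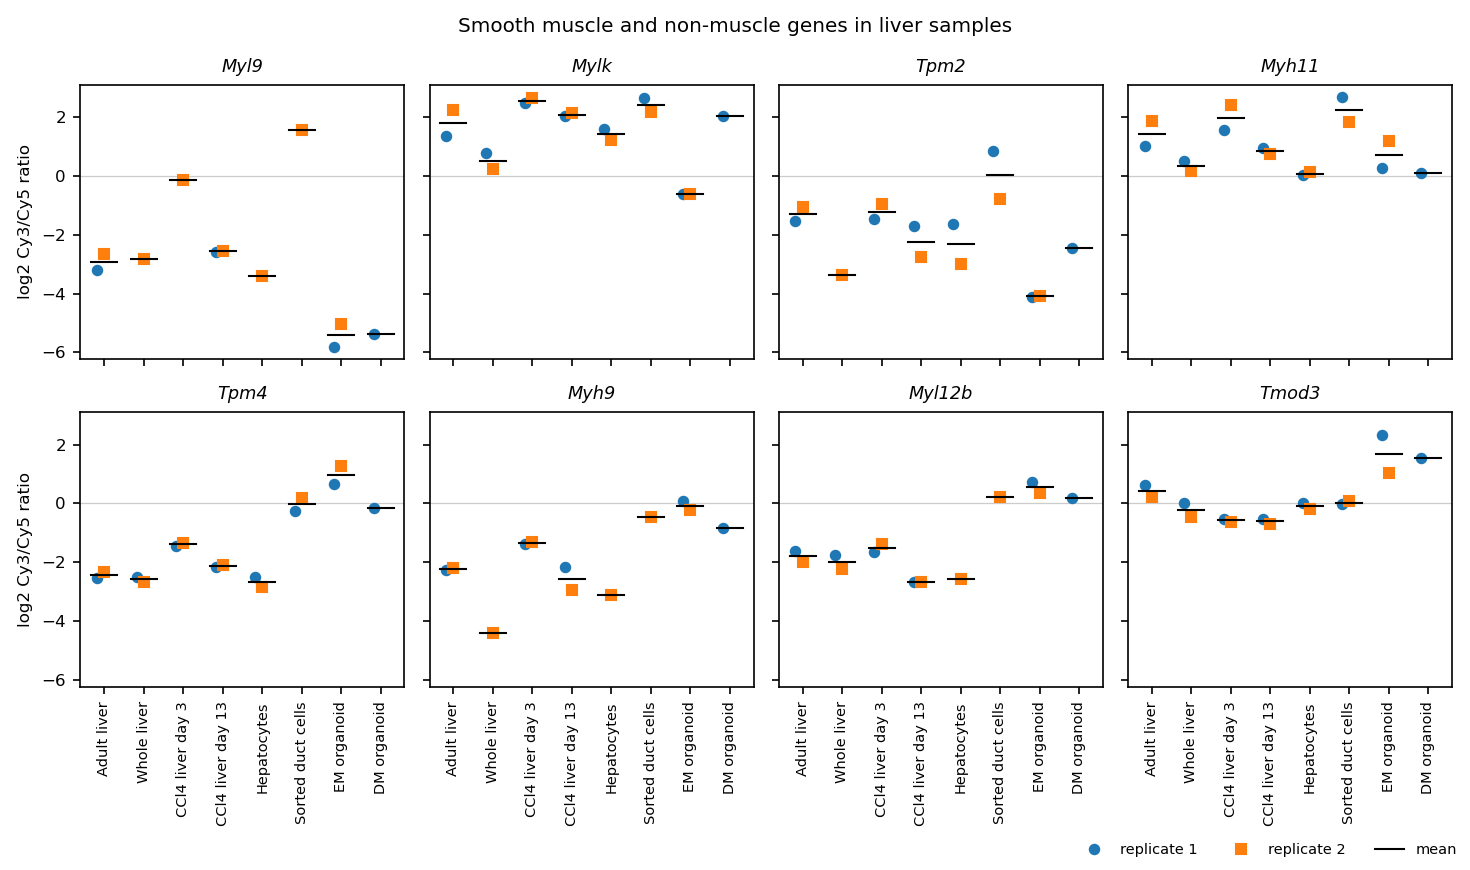
Log2 ratio to reference of 8 smooth muscle and non-muscle genes on each array (points, marked by replicate) of undamaged liver (adult and whole), liver after CCl4 (days 3 and 13), hepatocytes, sorted duct cells and EM and DM organoids, with a line at the group mean. Myl9 is high in duct cells (1.57) and lowest in organoids (-5.81 and -5.03 in EM), whereas Tpm4, Myh9 and Myl12b are higher in EM organoids than in liver and hepatocytes.

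Duct cells differed from hepatocytes in the same kinds of member. Of the 115 probes 15 were higher in duct cells and 0 lower, beside 9.75% and 9.71% of all tested probes (limma, with 19 higher and 1 lower at an unadjusted p under 0.05). Of the smooth and non-muscle roles 9 of 24 were higher. Myl9 read 1.57 in duct cells and -3.4 in hepatocytes on the 1 array of each that the fit used (4.97 ± 0.46, adjusted p = 3.18e-07). With 1 array against 1, the spread behind this SE comes from the other groups, as it does for Myh9 and Myl12b below. The Myl9 spots left out as not uniform would have read 1.29 and -3.4. Myh11 stood at 2.69 and 1.83 against 0.04 and 0.12, a difference of 2.18 ± 0.48 (adjusted p = 0.00142) and a bound of at least 8.05-fold. Lmod1, the smooth muscle leiomodin that nucleates actin, stood at 0.86 and 1.72 against -0.79 and -0.61, at least 5.01-fold. Duct cells were above hepatocytes on every array for these genes.

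Of the tropomyosins 4 of 9 probes were called higher, and of the non-muscle role 6 of 18. Tpm3 probe 2 read 0.42 and 1.89 in duct cells against -2.34 and -1.56 (3.11 ± 0.31, adjusted p = 1.38e-07), Tpm4 -0.27 and 0.2 against -2.5 and -2.86 (2.65 ± 0.49, adjusted p = 0.000249), and Tpm1 probe 3 -0.23 and -0.36 against -3.12 and -2.94 (2.74 ± 0.24, adjusted p = 1.59e-08). Myh9 read -0.46 against -3.11 and Myl12b 0.21 against -2.57, each from 1 array of either group, and the second Myh9 probe was not called (0.49, adjusted p = 0.253). Tnnt2, the cardiac troponin T, was the striated gene among these calls besides Myl7, at 1.47 and 1.16 against -1.23 and -0.63 (2.25 ± 0.66, adjusted p = 0.0133). Tnnt2 was also above adult liver at day 3 (0.06 and 0.68 against -2 and -1.38), though not called against undamaged liver (adjusted p = 0.0616), and in EM organoids (0.51 and 0.62), while the DM organoid read -1.1.

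The duct cell arrays carried markers of several cell types. Bile duct markers were higher than in hepatocytes for 7 of 10 genes, led by Spp1 and Krt19, stellate and matrix markers for 9 of 10, endothelial markers for 6 of 6 and smooth muscle and mesenchymal markers for 5 of 10. The summed stellate and matrix Cy3 was 185000 and 559000 in duct cells against 5010 and 11900 in hepatocytes. The part of these cells in the values of Myl9, Myh11 and Lmod1 was not tested. Each of 2 slides held 1 array of either group, and within them 10 of 10 and 15 of 15 called probes with a value kept their sign. The other 5 had no value on the first slide, so for them the second slide alone gave the fitted difference. The calls came from these same arrays, and the agreement is no independent check of batch. Without hepatocytes replicate 2, 9 were higher, and in Cy3 alone 9 were. With the deposited log ratio 23 were higher and 2 lower.

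In EM organoids, against adult liver, 13 members were higher and 11 lower, beside 13.5% and 15.7% of all tested probes. Smooth muscle probes gave 0 higher and 4 lower of 6, and non-muscle probes 7 higher and 1 lower of 18, with 10 not called. The difference between these roles was not tested. In Cy3 alone 13 were higher and 7 lower, with a fall of 0.31 in the median of all probes. Without adult liver replicate 2 or without EM replicate 1, 7 were lower. On the scan day that held an array of each, 24 of 24 called probes kept their sign, but those arrays were also used to make the calls.

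Tpm4 had the largest difference among these, at 0.66 and 1.29 in EM organoids against -2.53 and -2.32 in adult liver (3.4 ± 0.49, adjusted p = 9.44e-06). Myh9 stood at 0.09 and -0.23 against -2.27 and -2.21 (2.17 ± 0.26, adjusted p = 2.23e-06). Myl12b stood at 0.73 and 0.37 against -1.62 and -1.99 (2.36 ± 0.25, adjusted p = 3.89e-07). The second Myh9 probe was not called (0.26, adjusted p = 0.487). The probes given for these genes were higher on both organoid arrays than on both liver arrays, as were Actn1 (1.06 and 0.07 against -0.61 and -0.99), an actin cross-linker, and Tmod3 (2.34 and 1.03 against 0.63 and 0.21), a cap of actin filament ends. The other Tmod3 probes were not called (0.01 and 0.64).

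The genes lower in organoids included Myl9, at -5.81 and -5.03 against -3.2 and -2.65 (-2.49 ± 0.33, adjusted p = 1e-05), and Mylk, at -0.6 and -0.62 against 1.36 and 2.24 (-2.41 ± 0.28, adjusted p = 6.16e-07). Tpm2 stood at -4.13 and -4.07 against -1.54 and -1.04 (-2.81 ± 0.67, adjusted p = 0.00195). Tpm2 thus ran opposite to Tpm4 within the tropomyosins. Myh14, a non-muscle heavy chain of epithelia, was high on all these arrays, at 4.44 and 4.39 in EM organoids, 4.89 in the DM organoid, 3.88 and 4.59 in duct cells and 3.57 and 3.83 in adult liver, and was not called. Smooth muscle and mesenchymal markers outside the family divided: Cnn1 (1.8, adjusted p = 0.017) and Smtn (1.01, adjusted p = 0.009) were higher, Tagln (-1.51, adjusted p = 0.000945) and Pdgfrb (-3.77, adjusted p = 4.77e-11) were lower, and 6 of 10 were not called. Bile duct markers were higher in EM organoids for 9 of 10 genes, stellate and matrix markers lower for 9 of 10 (1 higher), endothelial markers lower for 6 of 6 and hepatocyte markers lower for 12 of 12. Their part in the result was not tested.

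Against sorted duct cells, 3 members were higher in EM organoids and 15 lower, beside 12.0% and 12.5% of all tested probes. Smooth muscle probes gave 5 of 6 lower. Myl9 had the largest difference, -6.99 ± 0.4 (adjusted p = 2.02e-09), from -5.81 and -5.03 against 1.57 on the 1 duct array used. Tpm2 differed by -4.13 ± 0.67 (adjusted p = 6.88e-05) from 0.84 and -0.78 in duct cells, and Lmod1 by -3.36 ± 0.34 (adjusted p = 1.98e-07), at -2.31 and -1.84. The 3 higher were Tmod3 (1.66 ± 0.32, adjusted p = 0.000341), the second probe of Myl12b (2.15 and 2.28 against 0.45 and 0.97) and Tpm3 probe 1 (2.12 and 1.25 against 0.28 and 0.2). Other probes of these genes were not called: Tmod3 (0.09 and 0.57), the leading probe of Myl12b (0.34) and Tpm3 probe 2, which ran the other way (-0.83, adjusted p = 0.0427, under the fold minimum). Tpm4 and Myh9 were not called between organoids and duct cells. Stellate and matrix markers were lower for 9 of 10 genes, with summed Cy3 of 5010 and 6460 against 185000 and 559000, and smooth muscle and mesenchymal markers for 7 of 10, with a part in the result that was not tested. In Cy3 alone, where the median of all probes fell by 1, 7 members were higher and 62 lower. The groups were on separate slides and scan days, and the comparisons of organoids with liver and with duct cells share the organoid arrays.

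The differentiation medium was read on 1 array, which is assumed here to vary like the other groups. Against EM organoids 4 members were higher and 2 lower, beside 5.48% and 3.82% of all tested probes. Myl7 stood at 3.31 against -0.05 and -0.18 (3.43 ± 0.35, adjusted p = 8.2e-07), a bound of at least 6.13-fold and its highest ratio on any array. Mylk stood at 2.03 against -0.6 and -0.62 (2.64 ± 0.34, adjusted p = 2.4e-05), beside 1.36 and 2.24 in adult liver. Myh10 stood at -3.07 against -0.02 and -1.29 (-2.42 ± 0.36, adjusted p = 1e-04), not well above background in the DM organoid, at least 1.91-fold lower. Myl6b, a non-muscle and slow-muscle light chain, was called higher at -0.37 against -1.82 and -1.41, without being well above background in the DM organoid. Single striated probes also read high there without a call, such as Tnni2 at 2.64 against 0.29 and 0.78 and the second probe of Myh2 at 2.16 against -0.02 and -0.05. On the slide that held both media 6 of 6 called probes kept their sign, but it holds the only DM array, which also made the calls. In a fit of the 3 organoid arrays alone 7 members were higher.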

How the data were processed

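RNA from 28 samples, labelled Cy3, was hybridised with a common Cy5 reference to two-colour Agilent arrays. The deposited scanner files hold spot intensity values as the authors' scans gave them; they were made with Agilent Feature Extraction 10.5.1.1 per the file headers (8.5.1.1 per the submitters' processing notes), with probe positions on mm9. The deposited value table holds log10 ratios of the same arrays by the authors, used as an alternative. Intensities (medians) were corrected with normexp (offset 50) and loess-normalised within each array, control spots had weight 0, outlier spots were left out, and log2 Cy3/Cy5 was averaged per probe. Of 41174 probes, 31064 well above background on at least 2 arrays were fitted with limma 3.58.1 (R 4.3.3), with 1 mean per group, 15 residual and 4.69 prior degrees of freedom. Calls needed a Benjamini-Hochberg adjusted p under 0.05 over all tested probes and a log2 difference of at least 1. The code was tested on simulated data. A gene with more than 1 probe is led by its brightest probe in mean Cy3, and its other probes are given where they differ in sign or call. Named genes are a fixed set that defines each role, plus the 3 largest called rises and falls per comparison whose arrays do not overlap, and the 2 largest of a marker list; any other was named after its values were seen. Members, lists and naming rule were chosen with earlier results of these data known. The number of arrays, 1 to 3 per group, limits the precision. Alternatives covered the deposited ratio, Cy3 alone, the background offset, filters, probe rule, blocks, fold minimum, samples in the fit and left-out arrays. Same-numbered replicates mostly did not deviate together (28 of 135 pairs with r over 0.1, highest r 0.45) and were not treated as pairs. In whole liver, hepatocytes, duct cells and Lgr5-sorted cells the arrays of replicate 1 shared a slide and scan day. Those of replicate 2 shared another, so in these groups the number is also a batch. Pancreas and the Lgr5-sorted cells entered the fit but no comparison. Sequences came from RefSeq (GRCm38.p6) and the array files.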

Additional observations from a re-analysis of the deposited data

Results flagged for a closer look

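The pancreas and Lgr5-sorted arrays entered no comparison, and in 8 cases the lowest array of the group stood at least 1 log2 unit above the highest undamaged liver array. No test was made of these values. The share of all probes that meet this rule is not given, so the cases are not read as a trait of the members. Pancreas had the highest mean for 0% of tested members and 11.7% of all tested probes, and Lgr5-sorted cells for 6.96% and 8.38%. In pancreas, Mylk2, the skeletal muscle myosin light chain kinase, had a mean log2 ratio of 4.9 (4.3 and 5.51, n = 2) against -0.06 at most in undamaged liver, and muscle stood at 5.46, 5.64 and 5.47. Tpm4 had a mean of -0.15 in pancreas (-0.62 and 0.32) against -2.32, and Myl9 a mean of -1.15 (-1.36 and -0.95) against -2.65.

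In Lgr5-sorted cells, Tpm3 had a mean of 1.22 (1.06 and 1.38) against -1.28, and Tpm4 a mean of 0.32 (-0.95 and 1.58) against -2.32. Myh9 had a mean of 0.02 (-0.03 and 0.06) against -2.21, Myl12b 0.57 (0.22 and 0.92) against -1.62, and Myl6, the light chain of non-muscle and smooth muscle myosin, 1.79 (1.23 and 2.35) against -0.47. These non-muscle members were above every undamaged liver array, on arrays where 21% and 18.5% of probes were well above background. The groups hold at most 3 arrays, so no array was tested as an outlier.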

How the results depend on the processing

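Counts are given as members higher/lower, or for 1 direction. With the deposited log ratio they were 4 lower for muscle against adult liver, 36/2 against white and 32/3 against brown fat, 8 higher for brown against white fat, 23/2 for duct cells against hepatocytes and 9 higher for day 13. In Cy3 alone they were 4 lower for muscle against liver, 8 lower against white fat, 7/32 for brown against white fat, 9 higher for duct cells, 7 lower for EM organoids against liver, 7/62 against duct cells and 1/3 at day 13. With offset 0, lower calls were 3, 2 and 3 for muscle against liver, white and brown fat, 1 for duct cells and 2 at day 13. With 1 probe per gene, higher calls were 50, 37 and 31 for muscle against liver, white and brown fat, 10 for brown against white fat and 1 for EM organoids against duct cells, with 1 lower for DM. With no fold minimum, lower calls were 5, 5, 3 and 17 for the 4 tissue comparisons in order and 1 at day 3, with 5 higher for EM organoids against duct cells. In fits of the compared groups alone they were 50 higher for muscle against white fat, 1/7 for brown against white fat, 1 lower for duct cells, 7 higher for DM and 11 higher at day 3. With scan day as a block 9 were higher in brown against white fat, and with whole liver 0 were lower in muscle (limma, 5 at an unadjusted p under 0.05).

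The replicate block gave 2 lower for muscle against liver, and of 177 named values 2 lost the call. The numbers do not in general pair the samples (median r 0.01 over 135 pairs, highest 0.45). Leaving out 1 array gave 91 to 92 and 1 to 2 for muscle against liver, 60 to 83 and 0 to 2 against white fat, 50 to 67 and 1 against brown fat, 7 to 36 and 6 to 12 for brown against white fat, 9 to 14 and 0 for duct cells, 10 to 15 and 7 to 9 for EM organoids against liver, 2 to 4 and 13 to 14 against duct cells, 4 to 5 and 2 for DM, 5 to 8 and 0 at day 3, and 1 to 14 and 1 to 4 at day 13. Muscle against liver had 2 lower without muscle replicate 1 or 3, and muscle against white fat 2 lower without white replicate 3 and 0 without muscle replicate 2; brown against white fat had 7 lower without white replicate 1. Reversed in brown against white fat were Mybpc3 (0.11 with the deposited ratio), Tmod4 (-0.1 in Cy3 alone) and Lmod2 (-0.69 in Cy3 alone). Of 182 named values the call was lost by 43 with the deposited ratio, 33 in Cy3 alone, 27 with offset 0, 10 with slide and 14 with scan day as a block, 29 in fits of the compared groups alone and 1 with outlier spots kept, a setting chosen after seeing the data. Myl9, Myh9, Myl12b and Myl6 gave no value where the left-out array was the one with a usable spot. The cause of these changes was not tested.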
